A study of Mus musculus with 8 samples.

Results

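The Toll-like receptors and their lipopolysaccharide co-receptor *Cd14* were followed in microglia sorted from brain at postnatal day 60. Of the 8 mice, 4 were mutants (*Smad2/3* fl/fl;*Cx3cr1*Cre) and 4 were controls, and each mouse gave 1 library. The 10 genes *Tlr1*, *Tlr2*, *Tlr3*, *Tlr4*, *Tlr5*, *Tlr6*, *Tlr7*, *Tlr9*, *Tlr13* and *Cd14* were chosen by symbol from the 55573 genes of the count table, and all 10 were counted in every library, with at least 115 reads each. SMAD2 and SMAD3 are transcription factors that act below the TGFβ receptor, and Cre made from the *Cx3cr1* locus acts in microglia and also in related macrophages. The labels call the controls wild-type littermates, whereas by the Methods no mouse was free of transgenes or floxed alleles, and controls were in general heterozygous for the floxed allele and carried Cre.

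Toll-like receptors recognise conserved molecules of microbes and of damaged cells. *Tlr1*, *Tlr2*, *Tlr4*, *Tlr5* and *Tlr6* encode receptors of the cell surface, which bind bacterial lipopeptides, lipopolysaccharide and flagellin, and *Tlr3*, *Tlr7*, *Tlr9* and *Tlr13* encode receptors of endosomes, which bind RNA or DNA. All of them signal through adaptors with a TIR domain to NF-κB and interferon regulatory factors, and microglia, the resident macrophages of the brain, are a main site of their expression in that tissue.

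The endosomal RNA and DNA receptors *Tlr3* and *Tlr9* and the lipopeptide receptor *Tlr6* were lower in mutants, and *Cd14* was higher. Expression is given as CPM, counts scaled to library size with TMM factors, and a value after ± is the SD over the mice of a group (n = 4 in each). Genes were tested over the whole table with edgeR's quasi-likelihood test and Benjamini-Hochberg adjustment, where an adjusted p under 0.05 made a call. Of the 10 genes, 1 was called higher, where 4.36% of the 20153 genes tested were called higher, and 3 were called lower, where 7.97% of all genes were. Calls in either direction made up 12.3% of all genes. DESeq2, run as an alternative, made more calls, with 9.11% of the 22931 genes it tested higher and 11.6% lower. On data simulated from these libraries a much larger share of its calls than of edgeR's fell on unchanged genes. The simulation changed far fewer genes than are called here and used edgeR's dispersions, so that share does not carry over to these calls. The log2 fold change of mutants over controls was negative for 8 of the 10 genes, with a median of -0.77, beside a median of 0.01 over all genes tested. In 6 of the 10 genes the 4 mutants did not overlap the 4 controls, as in 22.1% of all genes tested.

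Libraries held 37649124 to 40932680 counts in controls and 35639502 to 41946479 counts in mutants. Of the targeted genes, *Smad3* was at 39.4, 56.8, 49 and 49.2 CPM in controls and 15, 9.6, 35.1 and 17.5 CPM in mutants (log2 fold change -1.33, edgeR adjusted p = 0.0429), and this call was made in 1 of the 8 fits that left out 1 library, the one without mutant replicate 3 (adjusted p = 0.00432), and the adjusted p reached 0.11 without control replicate 2. *Smad2* was at 64.7, 78.3, 92.4 and 62.7 CPM in controls and 50.4, 42.6, 75.8 and 65.9 CPM in mutants, which overlap (log2 fold change -0.34, edgeR adjusted p = 0.34). Counts cover whole genes, including exons outside the floxed ones. In mutant replicate 3, whose *Smad3* was the nearest to the controls, *Tlr3* was the lowest and *Cd14* the highest of all libraries. The same library was the mutant nearest to the controls in *Tlr5*, *Tlr7* and *Tlr9*, at 12.4, 92.8 and 4.73 CPM. A relation between *Smad3* and the receptor genes among the mutants was not tested.

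**Figure D1:**
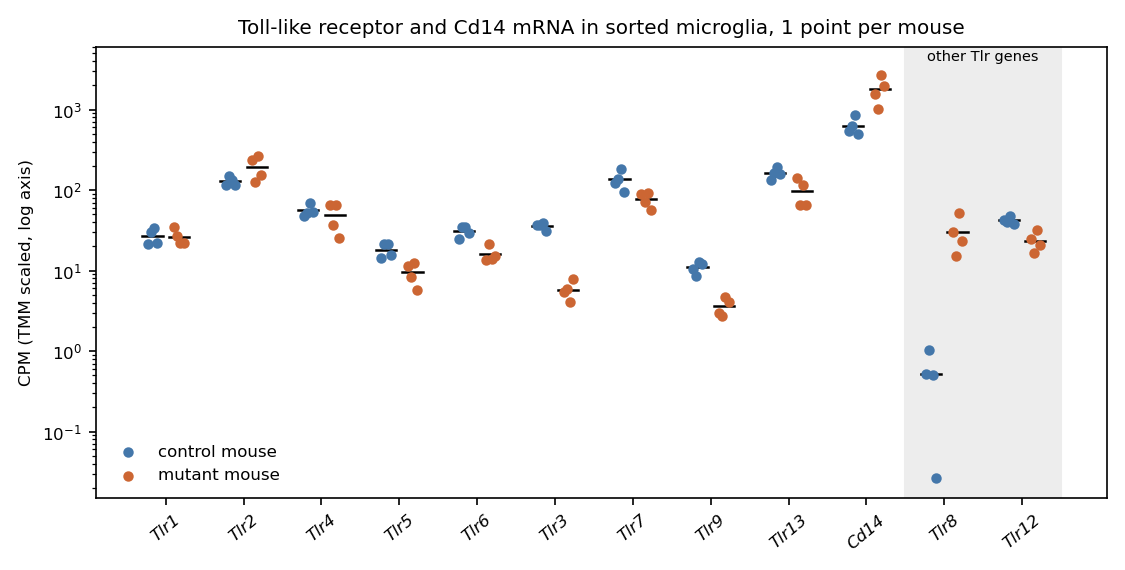
CPM of each receptor gene (log axis, TMM scaled) in the 4 control mice (blue) and the 4 mutant mice (orange), 1 point per mouse, with a bar at the group mean. *Tlr3* lies between 4.12 and 7.89 CPM in mutants, below every control, *Cd14* is at 1026 CPM or more in all mutants and at 864 CPM or less in all controls, and *Tlr8*, shown with *Tlr12* on the grey ground, is at or under 1.04 CPM in every control.

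**Figure D2:**
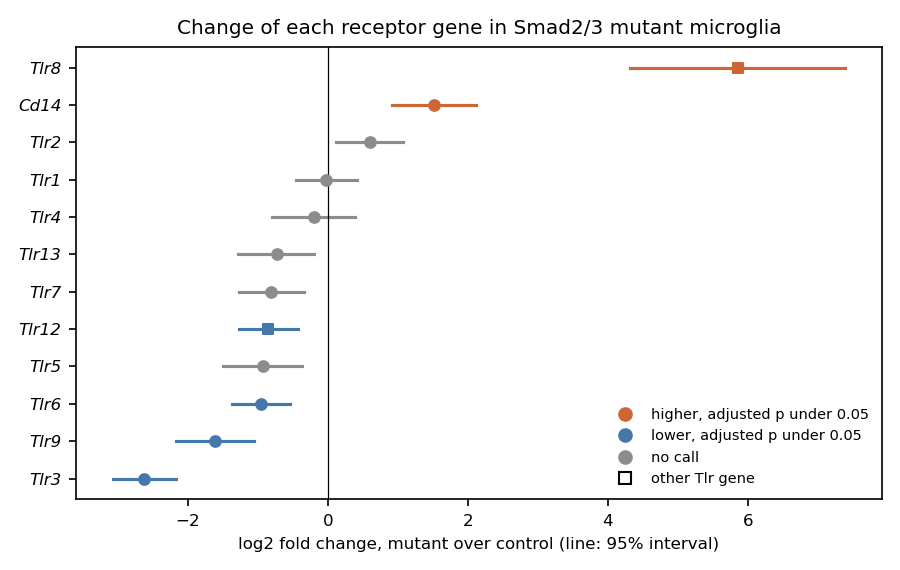
Log2 fold change of mutants over controls for each receptor gene, with a line over its normal 95% interval, coloured by the call of edgeR's test (circles, the 10 genes chosen; squares, *Tlr8* and *Tlr12*). The estimates run from -2.62 for *Tlr3* to 5.85 for *Tlr8*, and the 4 called genes among the circles are *Tlr3*, *Tlr9*, *Tlr6* and *Cd14*.

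*Tlr3*, the receptor for double-stranded RNA (ENSMUSG00000031639, chromosome 8, 45395665 to 45411080, minus strand), fell the furthest. In control replicates 1 to 4 it was at 36.9, 36.4, 38.9 and 31.3 CPM, and in mutant replicates 1 to 4 at 5.42, 5.87, 4.12 and 7.89 CPM. The highest mutant was far below the lowest control. The means were 35.9 ± 3.25 CPM in controls and 5.82 ± 1.56 CPM in mutants, a level lower by 6.16-fold (log2 fold change -2.62, standard error 0.23, edgeR adjusted p = 1.8e-04). The call was made in all 8 fits that left out 1 library. Exons of *Tlr3* share 5.3% of their 50-base words with the overlapping gene *Gm45542*, and reads of the 2 genes cannot be told apart there in unstranded libraries. In bulk RNA of sorted cells, fewer cells of a type and less RNA per cell cannot be told apart, which holds for every gene here.

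*Tlr9*, the receptor for unmethylated CpG DNA (ENSMUSG00000045322, chromosome 9, 106222598 to 106226883, plus strand), had the lowest group mean of the 10 genes per unit length in both groups, although it overlapped its neighbours in that order. Its CPM was 10.5, 8.63, 12.9 and 12.2 in the controls and 2.98, 2.74, 4.73 and 4.03 in the mutants. Every mutant was below every control, and the gap between the groups was about as wide as the range of the controls. The level fell from 11.1 ± 1.91 to 3.62 ± 0.927 CPM (log2 fold change -1.61, standard error 0.28, edgeR adjusted p = 0.00634), and the call was made in all 8 fits that left out 1 library.

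*Tlr6*, which pairs with *Tlr2* to bind diacylated lipopeptides (ENSMUSG00000051498, chromosome 5, 64952031 to 64960097, minus strand), fell from 30.9 ± 4.57 to 16 ± 3.63 CPM. Controls 1 to 4 had 25, 34.6, 34.4 and 29.5 CPM and mutants 1 to 4 had 13.5, 21.3, 14.1 and 15 CPM. Mutant replicate 2 came nearest to the controls, without reaching the lowest of them. On the log2 scale it fell by 0.95 (standard error 0.21, edgeR adjusted p = 0.0182). This call rested on 2 control libraries, because the adjusted p was 0.0613 without control replicate 2 and 0.0545 without control replicate 3, with a fold change of -0.89 in both fits.

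The reference promoters of the 3 genes that fell are shown with that of *Tlr8*, which rose, so that genes that moved in opposite directions can be set side by side. RefSeq windows of 300 bases on GRCm38.p6, from 250 bases before the start of transcription, were found for 7 of the 10 genes, and are printed 5′ to 3′ on the strand of the gene. Capitals mark every match, on either strand, to the SMAD box (CAGAC), the PU.1 core (GAGGAA), the IRF element (GAAANNGAA) or the AP-1 site (TGANTCA). These motifs occur in 49.6%, 28.3%, 8.56% and 7.81% of 32851 RefSeq promoter windows of the same length.
*Tlr3*, chr8:45410331-45410630, minus strand: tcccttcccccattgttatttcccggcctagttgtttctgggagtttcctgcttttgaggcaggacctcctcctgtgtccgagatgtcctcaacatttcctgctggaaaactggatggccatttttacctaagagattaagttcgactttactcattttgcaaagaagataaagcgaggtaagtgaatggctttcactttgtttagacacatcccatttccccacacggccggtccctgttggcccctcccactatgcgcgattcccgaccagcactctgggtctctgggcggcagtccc
*Tlr9*, chr9:106222348-106222647, plus strand: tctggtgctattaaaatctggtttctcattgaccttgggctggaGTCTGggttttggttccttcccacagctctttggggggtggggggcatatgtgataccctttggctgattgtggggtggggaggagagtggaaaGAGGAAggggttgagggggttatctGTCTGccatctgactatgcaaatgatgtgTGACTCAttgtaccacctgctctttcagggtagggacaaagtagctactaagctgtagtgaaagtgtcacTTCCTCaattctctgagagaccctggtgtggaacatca
*Tlr6*, chr5:64959117-64959416, minus strand, the first of its 2 windows: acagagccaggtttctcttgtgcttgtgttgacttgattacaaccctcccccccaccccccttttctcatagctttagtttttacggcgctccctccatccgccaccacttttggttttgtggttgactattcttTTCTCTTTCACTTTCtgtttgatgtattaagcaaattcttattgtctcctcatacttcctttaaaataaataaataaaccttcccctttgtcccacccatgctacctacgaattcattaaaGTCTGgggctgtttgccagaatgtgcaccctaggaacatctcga
*Tlr8*, chrX:167264280-167264579, minus strand: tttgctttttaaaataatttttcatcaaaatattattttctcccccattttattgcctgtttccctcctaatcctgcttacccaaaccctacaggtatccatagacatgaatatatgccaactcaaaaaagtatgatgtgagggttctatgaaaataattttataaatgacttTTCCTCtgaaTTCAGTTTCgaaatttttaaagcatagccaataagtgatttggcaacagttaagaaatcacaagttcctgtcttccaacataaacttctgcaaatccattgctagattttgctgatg

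The *Tlr3* window held none of the 4 motifs. The *Tlr9* window held 2 SMAD boxes, 2 PU.1 cores and 1 AP-1 site. The *Tlr6* window held 1 SMAD box and 2 IRF elements that overlap each other, in the run of capitals, and its other window held 1 SMAD box. In the *Tlr8* window 1 PU.1 core and 1 IRF element lay side by side, between positions -77 and -59 from the start. Among the receptor genes that were not called, *Tlr1*, *Tlr2* and *Tlr5* held 1 SMAD box each, and *Tlr1* and *Tlr13* 1 PU.1 core each. *Cd14*, which also rose, had no window. A match is a run of letters and not a bound site, and binding was not measured in these libraries. A relation between these motifs and the direction of change was not tested.

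*Tlr7* and *Tlr13*, which bind single-stranded RNA and bacterial ribosomal RNA, were also lower on average but did not pass the test. *Tlr7* (ENSMUSG00000044583, chromosome X, 167304929 to 167330558, minus strand) was at 124, 139, 185 and 95.3 CPM in controls and 89.2, 72, 92.8 and 56.9 CPM in mutants. No mutant reached the lowest control, although mutant 3 and control 4 were close together. Its log2 fold change of -0.81 (standard error 0.24) had an edgeR adjusted p of 0.0567. The call was made without control replicate 4 (-0.90, edgeR adjusted p = 0.0367), with a filter of 10 counts in all 8 libraries (edgeR adjusted p = 0.0386) and by DESeq2 (adjusted p = 0.0155), which called more of all genes.

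*Tlr13* (ENSMUSG00000033777, chromosome X, 106143204 to 106160493, plus strand) was at 134, 162, 193 and 157 CPM in controls and 143, 64.5, 116 and 65.3 CPM in mutants. Mutant replicate 1 lay within the range of the controls and the other 3 mutants below it. Mutants over controls gave -0.73 on the log2 scale (standard error 0.28, edgeR adjusted p = 0.118). Without mutant replicate 1 it was -0.98, and the adjusted p was 0.0425 in the same test.

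*Tlr8*, the neighbour of *Tlr7* on chromosome X and likewise an endosomal receptor (ENSMUSG00000040522), was called higher. It was counted at 0.516, 1.04, 0.503 and 0.0269 CPM in controls and at 30.2, 15.1, 52.7 and 23.6 CPM in mutants, so that the gene was near the limit of detection in every control and plainly expressed in every mutant. It rose by 5.85 on the log2 scale (standard error 0.78, edgeR adjusted p = 0.00162). The 2 genes lie 40599 bases apart on the same strand, with *Tlr8* from 167242696 to 167264329, and share none of their 50-base words with each other. Of the other *Tlr* genes, *Tlr12* fell from 42.2 ± 4.49 to 23.5 ± 6.48 CPM (log2 fold change -0.85, edgeR adjusted p = 0.0344). That call was made in 1 of the 8 fits that left out 1 library, the fit without mutant replicate 3 (adjusted p = 0.0166), and the adjusted p reached 0.0929 without control replicate 3. *Tlr11* was at 3.1, 0.546, 0.363 and 0 CPM in controls and 1.71, 1.14, 0 and 1.1 CPM in mutants.

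*Tlr7*, *Tlr8* and *Tlr13* are X-linked, and sex is not among the labels. *Xist*, the RNA that coats the inactive X chromosome, was at 99.3 to 183 CPM in the controls and at 0.0276 to 0.561 CPM in the mutants, and the Y-linked gene *Ddx3y* at 0.0269 to 0.224 CPM in controls and 9.73 to 59.7 CPM in mutants. Genotype and sex therefore cannot be told apart for these or any other gene of this comparison. The log2 fold changes of these 3 receptor genes were -0.81, 5.85 and -0.73.

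*Cd14*, which encodes the protein that hands lipopolysaccharide to the TLR4 complex (ENSMUSG00000051439, chromosome 18, 36725067 to 36726798, minus strand), was the gene that rose. Controls had 540, 625, 864 and 497 CPM and mutants 1570, 1026, 2687 and 1951 CPM. All mutants were above all controls, with mutant replicate 2 the nearest to them and mutant replicate 3 the highest. The mean rose 2.87-fold, from 631 ± 164 to 1809 ± 698 CPM (log2 fold change 1.52, standard error 0.31, edgeR adjusted p = 0.0128). The call was made in all 8 fits that left out 1 library, with an adjusted p of 0.00703 to 0.043.

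*Tlr4*, the lipopolysaccharide receptor itself (ENSMUSG00000039005, chromosome 4, 66827584 to 66930284, plus strand), was not called in either direction. Its CPM was 47.8, 52.4, 69.6 and 54.1 in controls and 65.9, 37.4, 66 and 25.6 in mutants. Mutants 1 and 3 lay among the controls and mutants 2 and 4 below them. A log2 fold change of -0.20 (standard error 0.30, edgeR adjusted p = 0.722) became 0.01 without mutant replicate 4. *Ly96*, which encodes the MD-2 subunit that binds lipopolysaccharide with TLR4, had a log2 fold change of 0.51 (standard error 0.24, edgeR adjusted p = 0.206).

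Within a library, the ratio of *Cd14* to *Tlr4* does not depend on the scaling of libraries. On the log2 scale, with a prior count of 2, it was 3.50, 3.58, 3.63 and 3.20 in controls and 4.57, 4.78, 5.35 and 6.25 in mutants. The 2 groups did not overlap, and the controls lay close together while the mutants were spread. The means differed by 1.76 (exact permutation p = 0.0286, two-sided, the smallest that 4 against 4 allows; p = 0.0714 adjusted over the 5 ratios examined). The ratio of *Ly96* to *Tlr4* ranged from -0.98 to -0.50 in controls and from -0.88 to 1.39 in mutants, which overlapped (difference 0.77, exact permutation p = 0.143).

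*Tlr2*, the shared partner of *Tlr1* and *Tlr6* (ENSMUSG00000027995, chromosome 3, 83836272 to 83841767, minus strand), was at 115, 152, 132 and 115 CPM in controls and 235, 126, 263 and 153 CPM in mutants. Mutants 1 and 3 exceeded every control, mutant 4 was just above the highest control and mutant 2 lay among them. Its log2 fold change was 0.60 (standard error 0.24, edgeR adjusted p = 0.146). *Tlr1*, which pairs with *Tlr2* to bind triacylated lipopeptides (ENSMUSG00000044827, chromosome 5, 64924679 to 64933563, minus strand), was at 21.5, 30.2, 33.8 and 22.2 CPM in controls and 34.8, 27.1, 22.2 and 22.1 CPM in mutants. Its ranges were nearly the same, and the log2 fold change was -0.02 (standard error 0.23, edgeR adjusted p = 0.968, 95% interval -0.46 to 0.42). *Tlr1* scaled by library totals, which shift the median of all genes to 0.13, had a fold change of 0.11.

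Ratios of these partners within a library were compared in the same way. The log2 ratio of *Tlr6* to *Tlr2* was -2.20, -2.14, -1.94 and -1.96 in controls and -4.12, -2.56, -4.22 and -3.34 in mutants. The groups did not overlap, and mutant replicate 2 was again the nearest to the controls. The difference was -1.50 (exact permutation p = 0.0286, two-sided; adjusted over 5 ratios p = 0.0714). The ratio of *Tlr1* to *Tlr2* overlapped between the groups, with a difference of -0.56 (exact permutation p = 0.114), and so did that of *Tlr9* to *Tlr7*, with a difference of -0.82 (exact permutation p = 0.0857). The adjusted p was 0.143 for both and for *Ly96* to *Tlr4*, and none of the 5 ratios passed 0.05 after adjustment.

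**Figure D3:**
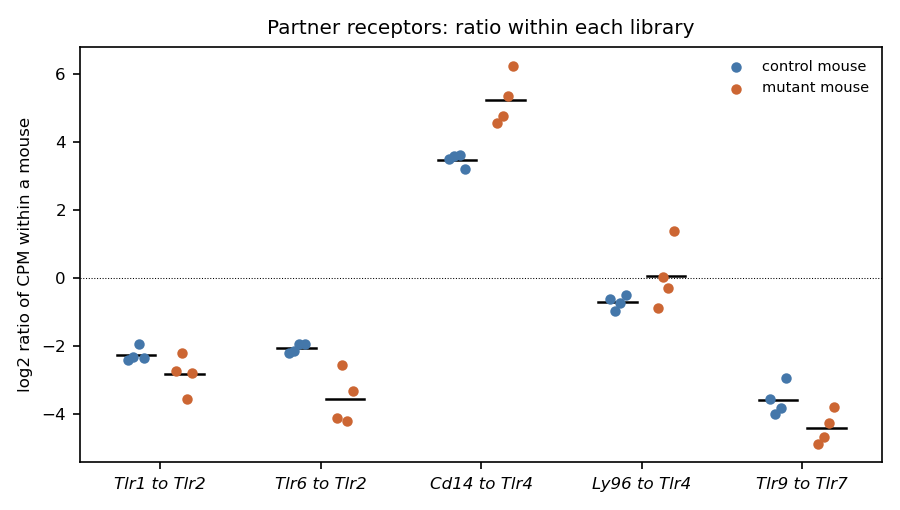
Log2 ratio of CPM between partner genes within each library (prior count of 2), for the 4 control mice (blue) and the 4 mutant mice (orange), with a bar at the group mean. The groups are apart for *Tlr6* to *Tlr2*, whose means are -2.06 and -3.56, and for *Cd14* to *Tlr4*, whose means are 3.48 and 5.24, and overlap for the other 3 ratios.

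*Tlr1* and *Tlr6* are neighbours, 18467 bases apart on chromosome 5, and their coding sequences are alike enough for reads to fit both. In the GENCODE M21 transcripts 6 identical runs of at least 50 bases cover 748 bases of the 2 genes. The longest run, of 229 bases, is shown in both genes with 20 bases on each side, because it is where the separate counts of the 2 receptors are least certain. The stretch is coding exon in both, and capitals mark the 2 bases that differ.
*Tlr1*, coding bases 1448 to 1716, chr5:64925517-64925785 of GRCm38, minus strand: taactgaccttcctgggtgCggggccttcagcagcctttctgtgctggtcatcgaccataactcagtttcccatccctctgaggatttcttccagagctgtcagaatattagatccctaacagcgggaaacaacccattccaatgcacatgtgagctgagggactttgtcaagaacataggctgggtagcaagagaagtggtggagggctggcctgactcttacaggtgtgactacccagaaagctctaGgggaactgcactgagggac
*Tlr6*, coding bases 1487 to 1755, chr5:64953808-64954076 of GRCm38, minus strand: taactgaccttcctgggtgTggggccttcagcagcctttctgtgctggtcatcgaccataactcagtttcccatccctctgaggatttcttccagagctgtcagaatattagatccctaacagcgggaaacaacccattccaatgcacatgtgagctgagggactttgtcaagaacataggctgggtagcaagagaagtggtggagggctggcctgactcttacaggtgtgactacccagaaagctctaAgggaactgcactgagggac

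Of their 50-base words, 15.4% in *Tlr1* were also found in transcripts of other genes, mainly *Tlr6*, and 12.3% in *Tlr6*, mainly *Tlr1*. The treatment of reads that fit both genes is not given in the sources used here, so the split of such reads between a gene that fell and one with a fold change near 0 was not tested.

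*Tlr5*, the flagellin receptor (ENSMUSG00000079164, chromosome 1, 182954788 to 182976044, plus strand), was lower in each mutant than in each control without passing the test. Controls had 14.5, 21.3, 21.4 and 15.5 CPM and mutants 11.4, 8.43, 12.4 and 5.71 CPM. Mutant 3 came close to control 1, and mutant 4 was the lowest. Its log2 fold change was -0.93 (standard error 0.29, edgeR adjusted p = 0.0657), and no fit that left out 1 library made the call, whereas DESeq2, which called more of all genes, did (adjusted p = 0.0144).

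Levels between genes were compared per length, as reads per kilobase of exon scaled to library size (RPKM). *Cd14* stood far above the receptors in controls at 364 ± 94.7 RPKM and in mutants at 1044 ± 403 RPKM. In controls *Tlr2*, *Tlr13* and *Tlr7* followed at 42.7 ± 5.83, 37.5 ± 5.63 and 33.3 ± 9.22 RPKM, and their ranges overlapped. After a gap came *Tlr4* at 10.1, *Tlr6* at 8.28, *Tlr1* at 8.05 and *Tlr3* at 6.89 RPKM, each overlapping the next. *Tlr5* at 3.79 and *Tlr9* at 3.18 RPKM were the lowest and overlapped each other.

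In mutants the order of the first 5 places was the same, but *Tlr2* at 64.5 ± 21.6 RPKM no longer overlapped *Tlr13* at 22.6 ± 9.01 RPKM. *Tlr1* at 7.94 and *Tlr6* at 4.29 RPKM, which overlapped in controls, were apart, with *Tlr1* the higher in all 4 mutants. *Tlr3* moved from the place after *Tlr1* to 1.12 ± 0.3 RPKM, among *Tlr5* at 1.98 and *Tlr9* at 1.04 RPKM, and each of these overlapped its neighbour in the order. These levels take the union of a gene's exons as its length, and with the longest transcript instead the control levels were 13.7 for *Tlr4*, 8.14 for *Tlr3* and 4.75 RPKM for *Tlr5*.

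**Figure D4:**
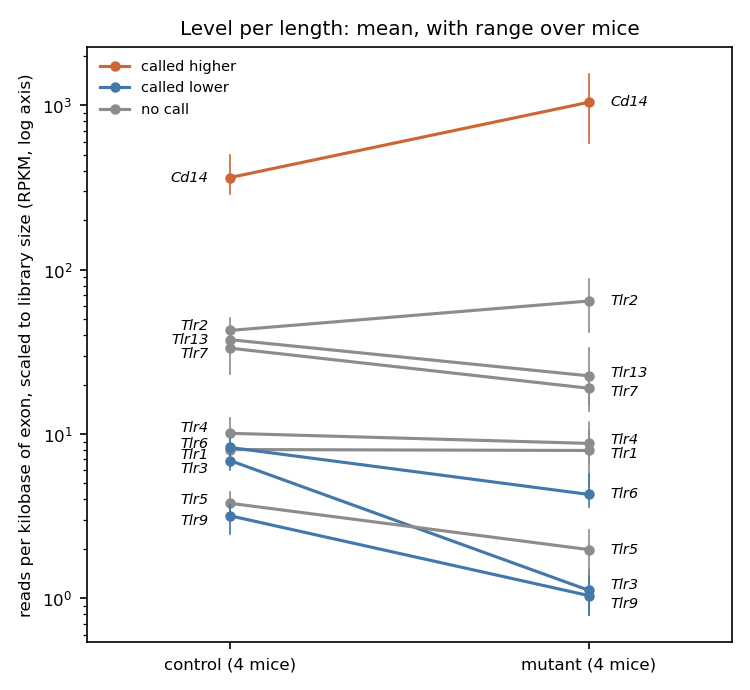
Mean reads per kilobase of exon, scaled to library size (RPKM, log axis), of the 10 genes in 4 control and 4 mutant mice, with a thin line from the lowest to the highest mouse, coloured by the call of edgeR's test. *Cd14* rises from 364 to 1044 and *Tlr3* falls from 6.89 to 1.12, which takes it below *Tlr5*.

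The genes around the receptors were read from lists of 67 genes by role, of which 65 could be tested, and 10 were called higher and 12 lower, with a median log2 fold change of -0.30. EdgeR's shares over all genes tested were 4.36% higher and 7.97% lower, which also stand beside the counts of each list below. Of the 65 genes DESeq2 called 12 higher and 18 lower, beside its larger shares over all genes given above. Of the 22 calls, 13 were made in all 8 fits that left out 1 library. The other 9 are *Tlr12*, *Slc15a4*, *Map3k7*, *Pik3ap1*, *Rela*, *Irf5*, *Irak3*, *Socs1* and *Il1b*. Exons of *Cd180*, *Slc15a4*, *Ticam2*, *Irak2*, *Irf5*, *Irf7*, *Irak3*, *Il1b* and *Cxcl10* overlap those of another gene, whose reads cannot be told apart there in unstranded libraries.

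Among the 10 co-receptors and chaperones edgeR called none higher (none by DESeq2 or at an unadjusted p under 0.05 either) and 3 lower. DESeq2 called 7 of them lower, beside 11.6% of all genes it tested. At an unadjusted edgeR p under 0.05, 7 were lower, a level for which no share over all genes was taken. *Pld4*, an endosomal exonuclease that degrades nucleic acids, was at 1097, 1219, 1614 and 1323 CPM in controls and 335, 314, 304 and 290 CPM in mutants (log2 fold change -2.08, standard error 0.16, edgeR adjusted p = 1.0e-04). The 4 mutants were nearly alike and the lowest control was far above them. *Cd180*, a homologue of TLR4 that dampens its signal, fell from 34.4 ± 9.24 to 4.83 ± 1.55 CPM (log2 fold change -2.83, edgeR adjusted p = 5.5e-04). *Slc15a4*, a lysosomal transporter needed for signalling from the endosome, fell from 113 ± 37.2 to 49 ± 12.5 CPM (log2 fold change -1.20, edgeR adjusted p = 0.0181; 0.0572 without mutant replicate 2). *Unc93b1*, the chaperone that carries nucleic acid receptors to endosomes, had a log2 fold change of -0.74 (edgeR adjusted p = 0.0522, DESeq2 adjusted p = 0.0102). *Ly86*, the partner of *Cd180*, had one of -0.98 (edgeR adjusted p = 0.0579, DESeq2 adjusted p = 0.0104).

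Of the 19 adaptors and kinases edgeR called 4 lower and none higher (none by DESeq2 or at an unadjusted p under 0.05 either), with a median of -0.47. Lower were 5 by DESeq2, beside 11.6% of all genes it tested, and 5 at an unadjusted edgeR p under 0.05. *Ticam2*, the adaptor that links TLR4 to TICAM1, had 26, 25.7, 33.9 and 24.2 CPM in controls and 6.51, 8.02, 5.18 and 12.4 CPM in mutants. The groups were well apart, *Ticam2* fell by 1.77 on the log2 scale (standard error 0.29, edgeR adjusted p = 0.00434), and 14.7% of its words are shared, mainly with the overlapping *Tmed7*. The kinase *Irak2* fell by 0.85 on the log2 scale (edgeR adjusted p = 0.0144). *Pik3ap1*, an adaptor to phosphoinositide kinase, had a fold change of -1.25 (edgeR adjusted p = 0.0199) and *Map3k7*, the kinase TAK1, of -0.78 (edgeR adjusted p = 0.0455). Their calls were made in 3 and 1 of the 8 fits that left out 1 library, with an adjusted p of up to 0.0631 without mutant replicate 2 and 0.123 without control replicate 3. *Myd88*, the adaptor of most of these receptors, was lower in every mutant than in every control (104 ± 15.9 and 70.3 ± 9.14 CPM, log2 fold change -0.57, edgeR adjusted p = 0.0527, DESeq2 adjusted p = 0.0106). *Ticam1*, the adaptor of *Tlr3*, had a fold change of -0.47 (edgeR adjusted p = 0.329).

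Of the 8 transcription factors 3 were called lower and 1 higher. *Nfkb1*, which encodes the p105 precursor of the NF-κB subunit p50, was at 139, 136, 247 and 137 CPM in controls and 57.6, 57.5, 51.7 and 60 CPM in mutants. Control replicate 3 stood above the other controls, and all mutants were below all controls. *Nfkb1* fell by 1.54 on the log2 scale (standard error 0.22, edgeR adjusted p = 0.00229). *Rela*, the other subunit of the classical dimer, had a fold change of -0.85 (edgeR adjusted p = 0.0418) and *Irf5*, which acts below *Myd88*, of -0.74 (edgeR adjusted p = 0.0481). They were called in 2 and 1 of the 8 fits without 1 library, with an adjusted p of up to 0.109 and 0.118 without mutant replicate 2, and both lost it when scaled by library totals (edgeR adjusted p = 0.0632 and 0.0528). *Irf7*, the interferon regulatory factor that acts below *Tlr7* and *Tlr9*, rose from 17.3 ± 11.9 to 89 ± 25.7 CPM (log2 fold change 2.36, edgeR adjusted p = 0.0128).

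Among the 12 negative regulators *Inpp5d*, the phosphatase SHIP1, was called lower at 527 ± 138 and 134 ± 28 CPM (log2 fold change -1.97, edgeR adjusted p = 9.7e-04). *Irak3*, a kinase-dead brake on IRAK signalling, was called higher at 4.17 ± 1.41 and 13.4 ± 7.28 CPM (log2 fold change 1.68, edgeR adjusted p = 0.0356), and *Socs1*, the suppressor of cytokine signalling, at 13.6 ± 2.02 and 23.5 ± 3.15 CPM (log2 fold change 0.79, edgeR adjusted p = 0.0253). The calls of *Irak3* and *Socs1* were made in 2 and 3 of the 8 fits without 1 library, with an adjusted p of up to 0.0998 without control replicate 3 and 0.077 without mutant replicate 2. *Nfkbia* had a log2 fold change of 0.67 (edgeR adjusted p = 0.155) and *Tnfaip3* of -0.28 (edgeR adjusted p = 0.755). *Atf3* was at 3630 ± 1633 CPM in controls and 1760 ± 597 CPM in mutants, which overlapped. Its log2 fold change was -1.04 (edgeR adjusted p = 0.0939; DESeq2 adjusted p = 0.0316).

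Of 15 genes that Toll-like receptor signals are known to induce, 13 could be tested, and edgeR called 6 higher and none lower (none by DESeq2 or at an unadjusted p under 0.05 either), with a median of 1.43. DESeq2 called 8 higher, beside 9.11% of all genes it tested. The lists share no genes, so this count and median depend on the placing of genes. *Atf3* (-1.04), *Tnfaip3* (-0.28), *Nfkbia* (0.67) and *Socs1* (0.79), which such signals may also induce, stand among the negative regulators. The signal behind any of these changes was not tested. The neutrophil attractant *Cxcl2* was at 43.5, 67.8, 58.4 and 39.1 CPM in controls and 1235, 820, 2359 and 1450 CPM in mutants (log2 fold change 4.81, standard error 0.38, edgeR adjusted p = 9.8e-05). *Cxcl1*, its neighbour on chromosome 5, rose from 2.26 ± 1.61 to 106 ± 49.8 CPM (log2 fold change 5.55, edgeR adjusted p = 0.00135). In both genes every mutant was far above every control and mutant replicate 2 was the lowest mutant, as it was for *Cd14*. Some of the words of *Cxcl2*, 5.84%, are shared with *Cxcl3*.

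The cytokines *Tnf* and *Il1b* were also called higher. *Tnf* was at 72.5, 76.7, 85 and 66.9 CPM in controls and 161, 113, 225 and 195 CPM in mutants (log2 fold change 1.21, edgeR adjusted p = 0.00701). *Il1b* was at 45.6, 78.3, 30.8 and 23.2 CPM in controls and 122, 133, 430 and 426 CPM in mutants, where mutants 3 and 4 were far above mutants 1 and 2 (log2 fold change 2.64, edgeR adjusted p = 0.0147; 0.0516 without control replicate 3). The chemokines *Cxcl10* and *Ccl3* rose by 1.94 and 1.43 on the log2 scale (edgeR adjusted p = 0.0115 and 0.00306). Of those not called, *Il10* had 0.673 ± 0.571 CPM in controls and 7.02 ± 3.73 CPM in mutants, without overlap (log2 fold change 3.38, edgeR adjusted p = 0.0557; DESeq2 adjusted p = 0.00191). *Ptgs2* had 3.55 ± 1.05 and 8.38 ± 3.97 CPM, also without overlap (log2 fold change 1.24, edgeR adjusted p = 0.0743, DESeq2 adjusted p = 0.0148), and *Ccl5* a log2 fold change of 1.44 (edgeR adjusted p = 0.162). *Il6* had 3.03 ± 0.942 CPM in controls and 1.32 ± 1.24 CPM in mutants (log2 fold change -1.20, edgeR adjusted p = 0.259), *Ccl4* a fold change of 0.30 (edgeR adjusted p = 0.38), and *Ifnb1* was at or under 4.33 CPM in all libraries. *Nfkbiz* was at 578 ± 364 CPM in controls and 602 ± 246 CPM in mutants (log2 fold change 0.06, edgeR adjusted p = 0.951). *Il12b* and *Nos2* did not pass the filter on low counts.

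**Figure D5:**
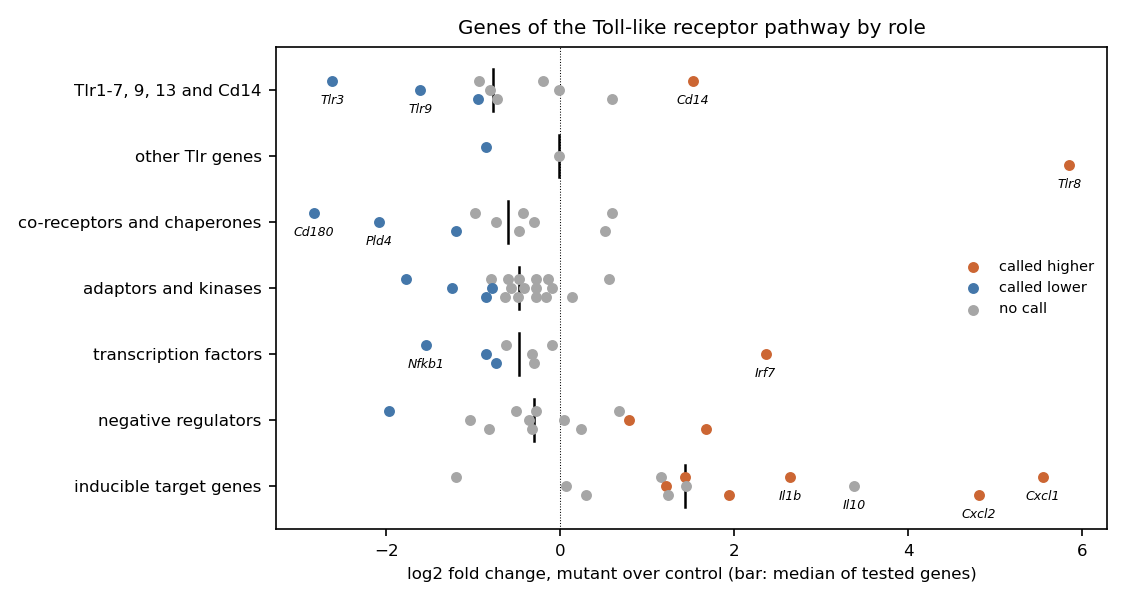
Log2 fold change of mutants over controls for each tested gene of the 10 receptor genes and of 6 lists of pathway genes by role, coloured by the call of edgeR's test, with a black bar at the median of each row. The median is negative for the receptors (-0.77), co-receptors (-0.60), adaptors and kinases (-0.47), transcription factors (-0.47) and negative regulators (-0.31) and is 1.43 for the inducible target genes. The lists share no genes, so the medians depend on the placing of genes.

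Genes whose pattern over the 8 libraries was nearest to that of a receptor were found among 10341 well expressed genes, by the root mean square difference of centred log2 CPM. Nearest to *Cd14* were *Cited2* (0.179), *Marcksl1* (0.182) and *Entpd7* (0.197). Nearest to *Tlr2* were *Usp25* (0.144), *Rnf149* (0.173) and *Wdr41* (0.175), and nearest to *Tlr13* were *Unk* (0.102), *Taf4* (0.123) and *Aldh16a1* (0.126). The control and mutant means of *Cited2* were 115 and 330 CPM, and those of *Unk* were 47.9 and 29.4 CPM.

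The sorts of the 2 groups also differed in the markers of cell types. Over all genes tested, edgeR called 4.36% higher and 7.97% lower. All 8 microglial markers were called lower in mutants, with a summed level of 30944 to 47294 CPM in controls and 5260 to 7611 CPM in mutants, and their lowest was *Sall1*, at 0.207 CPM in mutant replicate 1. Among them *Cx3cr1*, the locus from which Cre is made, was at 6622 ± 1390 CPM in controls and 1319 ± 32.1 CPM in mutants. The labels and the Methods differ on whether controls carried Cre, and an effect of that allele on the *Cx3cr1* level was not tested. Of 6 markers of border-associated macrophages 4 (*Mrc1*, *Pf4*, *Ms4a7*, *Cd163*) were called higher, and the sum was 47.5 to 93.1 CPM in controls and 1596 to 2482 CPM in mutants. *Lyve1*, at or under 6.68 CPM, had a log2 fold change of 1.86 (edgeR adjusted p = 0.109; DESeq2 adjusted p = 0.0333). *F13a1* was at 34 ± 17.3 CPM in controls and 38.6 ± 9.51 CPM in mutants (log2 fold change 0.19, edgeR adjusted p = 0.789). T cell markers summed to 13.1 to 40.1 CPM in controls and 89.9 to 160 CPM in mutants, with *Cd4* and *Cd3e* called higher of 6. The largest part of that difference was *Cd4*, at 2.48 ± 2.22 CPM in controls and 60.8 ± 12.5 CPM in mutants. *Cd3e* was at 2.1 and 7.7 CPM, *Cd3d* at 5.38 and 13.3 CPM and *Cd3g* at 5.65 and 19.6 CPM. B cell markers summed to 476 to 760 and 79.6 to 122 CPM, with *Ighm* called lower of 6 and *Pax5* at or under 1.86 CPM. That difference in sums was carried by *Ighm*, at 497 ± 137 and 40.6 ± 10.8 CPM, while *Cd79a* was at 8.88 and 9.25 CPM and *Cd79b* at 39.7 and 41.5 CPM.

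Monocyte markers summed to 133 to 308 CPM in controls and 117 to 251 CPM in mutants, with no call among 6 by edgeR or DESeq2 and none at an unadjusted p under 0.05. Neutrophil markers summed to 425 to 1735 and 223 to 729 CPM with 1 called lower of 6. Plasmacytoid dendritic cell markers summed to 150 to 234 and 111 to 127 CPM, with *Cox6a2* (15.7 ± 10.1 and 1.45 ± 1.15 CPM) called lower of 3 tested. Most of that sum was *Tcf4*, at 162 ± 37.1 and 111 ± 9.49 CPM, while *Ly6d* was at 8.29 and 7.26 CPM. Astrocyte markers summed to 1424 to 2424 and 341 to 1256 CPM with *Slc1a3* (1348 ± 290 and 78.8 ± 62.9 CPM) called lower of 6, while *Aldoc* was at 403 and 399 CPM. By edgeR, no call was made among oligodendrocyte markers (599 to 4325 and 1082 to 3601 CPM), neuronal markers (32.7 to 293 and 93 to 293 CPM) and endothelial markers (24.3 to 47.7 and 26.6 to 45.1 CPM). At an unadjusted p under 0.05 they had 1 higher, none and 1 lower, and DESeq2 called 1 of them, the endothelial *Pecam1*, lower. The part of any of these cells in the levels of the receptors was not tested.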

How the data were processed

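RNA-seq counts of sorted microglia from 4 mutant and 4 control mice were used, grouped by the sample labels. Since the Methods give a different deposit for *Smad2/3* mutants, genotype and cell type were the basis for taking these libraries as theirs. The deposited values are raw counts per gene: per the Methods and the labels, the authors used Rsubread for alignment to mm10 and featureCounts for counting. Versions of both, the annotation and the strand setting are not given in the sources used here. The labels name unstranded single-end Nextera XT libraries, the Methods unstranded paired-end NEBNext Ultra II libraries. The authors' table of DESeq2 (version 1.28) fold changes and p-values was not used.

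Genes that reached 10 counts in 4 or more of 8 libraries were tested with edgeR 4.0.16 (TMM, glmQLFit, glmQLFTest) in R 4.3.3, two-sided, with Benjamini-Hochberg adjustment over all genes tested. A standard error is the log2 fold change over the square root of F, and 95% intervals are normal intervals around the fold change. They are narrower than the test with few mice allows. For *Ly96* the interval of 0.03 to 0.98 leaves out 0, although the unadjusted edgeR p is 0.0661. Ratios within libraries were compared by exact permutation over the 70 splits, whose smallest p is 0.0286. Alternatives were DESeq2 1.42.0, RLE factors, library totals, no filter, a filter in all 8 libraries, the replicate block, each library left out with the genes tested kept, a prior count of 0.5, and the longest transcript as length. The fits were tested on counts simulated with edgeR's dispersions, with far fewer genes changed than are called here. There DESeq2 placed a much larger share of its calls on unchanged genes than edgeR did. That share does not carry over to these data, and DESeq2's calls are given only as an alternative. Coordinates and shared 50-base words are from GENCODE M21 (GRCm38), which matched 55480 of 55573 genes, and promoters from RefSeq (GRCm38.p6), with no window for *Tlr4*, *Tlr7* or *Cd14*.

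The genes and lists were chosen with earlier results of these data known. Named genes are the 10 receptor genes, the targeted genes, called genes of the pathway lists with examples of those not called, genes of the ratios, the 3 genes nearest in pattern to each of the 3 receptor genes of highest CPM, and markers. Depth was 35639502 to 41946479 counts per library. Over all genes tested the biological coefficient of variation was 0.542, so that the spread between mice was wider than that of counting. This is not a value for the receptor genes, whose CPM in each mouse is given above. No 2 libraries of a group agreed within sampling noise (lowest chi-square per gene 107). Each library is taken from 1 mouse, as in the design text.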

Additional observations from a re-analysis of the deposited data

Results flagged for a closer look

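The 78 groups of 4 values examined were CPM of the 10 receptor genes, the called pathway genes and the targeted genes, and the ratios between receptors. Markers of cell types and the other genes named above were not examined in this way. In 3 of the 78 groups, 1 library lay farther from the other 3 than Dixon's 95% critical value allows. Chance gives about 1 in 20. *Pik3ap1*, the adaptor to phosphoinositide kinase, was at 161 CPM in mutant replicate 1 and at 81.4 to 93.3 CPM in the other mutants. *Nfkb1* was at 247 CPM in control replicate 3 and at 136 to 139 CPM in the other controls. *Ccl3* was at 451 CPM in control replicate 2 and at 343 to 357 CPM in the other controls. No group of values of the 10 receptor genes met this criterion.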

How the results depend on the processing

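Of 140 alternatives run for the fold changes of the 10 receptor genes, 126 kept direction and call, 2 lost a call (*Tlr6*), 6 gained one (*Tlr5*, *Tlr7*, *Tlr13*) and 6 turned the sign of *Tlr1* or *Tlr4*, neither of which was called under any setting. *Tlr1* was at 0.11 with library totals and between -0.18 and 0.11 with each library left out, and *Tlr4* between -0.38 and 0.01. DESeq2 called 4751 genes, beside 2485 in edgeR's test, and 5 receptor genes lower, beside 3. On simulated data with far fewer changed genes, a much larger share of its calls than of edgeR's fell on unchanged genes. With each library left out, 1567 to 2499 genes were called, with the fewest without control replicate 3, and 6 to 10 pathway genes were called lower, with the fewest without mutant replicate 2. The cause was not tested. With the replicate block 2383 genes were called, 2001 of them shared, and 4 receptor genes lower, since *Tlr7* was called (edgeR adjusted p = 0.0244). *Il1b* (0.0669), *Irak3* (0.0609) and *Irf5* (0.0544) lost the call there (edgeR adjusted p). Without a filter on low counts *Map3k7* (0.0688), *Rela* (0.0509), *Irf5* (0.0713), *Socs1* (0.0528) and *Smad3* (0.051) lost it, with library totals *Map3k7* (0.0572), *Rela* and *Irf5*, and with RLE factors *Irf5* (edgeR adjusted p = 0.0552). Replicates share only a number: same-numbered libraries correlated at 0.166, 0.0183, 0.144 and 0.114 in their deviations from the group means, the highest mean of the 24 pairings, and replicates 1, 3 and 4 but not 2 matched their own number best. Replicate 1 was also the highest of both groups in the myelin gene *Mbp*, at 3462 CPM beside 439 to 1214 CPM in other controls and 2806 CPM beside 815 to 1308 CPM in other mutants, a gene chosen after its values were seen. The signs of the 5 ratios held in all 50 alternatives. The replicate block among these gives the same mean difference by construction and could not turn a sign. The adjusted p of the ratios says little of stability, since the smallest exact permutation p is 0.0286 with 4 mice against 4 and 0.125 with 4 pairs. Levels per length moved by more than 1 SD in 3 of 120 alternatives.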
